A study of Oryza sativa with 12 samples.

Results

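At 13493 of the 249857 sites in the SNP call table (5.40%), the same pair of bases was called in R9308 and in Xieqingzao B at both the tillering and the heading stage. These sites were chosen on the called bases of the 4 parental columns alone, so the calls that chose them are described and not tested. The hybrid columns played no part in the choice. The table covers roots of 3 genotypes, namely the super-hybrid rice Xieyou9308, its paternal line R9308 and its maternal line Xieqingzao B, each at heading and at tillering. Seedlings raised in the field were moved to a floating plot over nutrient solution, and 2 roots of each genotype were taken at either stage for RNA sequencing. The roots gave 12 separate libraries, but reads of both roots were put together by the authors before SNP calling, so the table holds a single pooled set of reads for each of the 6 combinations of genotype and stage. Each is called a pooled library below, and no spread between roots can be read from the table. Whole roots were used, and the labels do not separate root cell types.

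R9308 and Xieqingzao B are inbred lines, in which nearly every locus carries a single allele. A transcript position of an inbred line is therefore normally read as a single base, whereas the hybrid shows both parental bases wherever its parents differ. A pair of bases within an inbred line can be read where several near-identical gene copies are placed on a single reference transcript, where RNA is edited after transcription, where the line still segregates, or where reads are placed or read wrongly near the edge of a transcript. Rice carries many tandem and segmental gene copies, among them a young duplicated segment shared by the ends of the short arms of chromosomes 11 and 12. RNA editing in plants is known mainly as C-to-U conversion in mitochondrial and plastid transcripts.

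The chosen sites were read more deeply than the rest of the table, which in the parents was partly built in by choosing called pairs. Their median number of reads per column lay between 31 and 45, against 17 to 25 at the other sites, and their median quality score lay between 85 and 94, against 72.3 to 98 at the other sites. The score was higher at the chosen sites in both hybrid columns and both R9308 columns, but lower in Xieqingzao B, with 90 against 98 at heading and 86 against 88.1 at tillering. The sites with a pair in a parental column numbered 49605 in R9308 at heading, 72406 in R9308 at tillering, 51059 in Xieqingzao B at heading and 57539 in Xieqingzao B at tillering. The chosen sites made up 18.6% to 27.2% of them. In the hybrid, 85063 sites at heading and 82765 at tillering had a pair.

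Another 1055 sites had a pair in all 4 parental columns, but not the same pair. A further 4642 sites had the same pair everywhere except in R9308 at heading, and 2628 of them had no call there. The corresponding numbers were 2836 for R9308 at tillering, 4072 for Xieqingzao B at heading and 3562 for Xieqingzao B at tillering. Where such a site did have a call in the missing column, the median number of reads was only 11 to 18. Most of these near misses were therefore sites with no call in the missing column, and the rest were mostly shallow there.

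The chosen sites were concentrated in a small fraction of the transcripts. They lay in 3082 of 28182 transcripts (10.9%), from 3021 loci. A single site was found in 1097 transcripts, whereas 314 transcripts held at least 10 and together carried 43.8% of the set. The median was 2 sites per transcript and the most was 72, and 96 transcripts held at least 20. Transcripts of the same locus share sequence, and 638 of the chosen sites belonged to 57 loci that were counted in more than a single transcript. Adjacent chosen sites of a transcript lay a median of 24 bases apart (quartiles 8 and 64), against 29 bases (quartiles 9 and 111) between the other sites.

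The 10 transcripts with the most chosen sites held 44 to 72 of them. Os06t0281400-01 and Os03t0251500-01 each had 72, out of 113 and 184 sites in the table. Os01t0263600-01 and Os02t0118600-00 each had 69, out of 107 and 198 sites. Os01t0520600-01 followed with 66 of 134, Os02t0528900-01 with 64 of 227 and Os09t0442700-00 with 57 of 98. Os03t0349200-01 held 51 of 69, Os06t0622800-01 held 46 of 101 and Os03t0662000-01 held 44 of 58. The sites did not always span the whole transcript. In Os03t0662000-01 they were packed between positions 3841 and 4689, whereas in Os02t0118600-00 they ran from position 22 to position 4747. The files do not pair these identifiers with gene names, so no function is given for them.

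Within these transcripts the reads were split in a similar way in hybrid and parents at some sites and differently at others. The alternative share is the percentage of reads at a site that carried the base other than the reference base, and intervals are 95% Wilson intervals that cover counting error only. In Os03t0662000-01 the best covered site, position 4528, had an alternative share of 84.6% at heading and 77.1% at tillering in Xieyou9308. At the same site R9308 had 87.5% at heading and 77.3% at tillering, and Xieqingzao B had 84.2% at heading and 83.6% at tillering. All 6 libraries thus carried mostly the alternative base there. At position 565 of Os06t0622800-01 the shares were 68.2% and 70% in the hybrid at heading and tillering, against 58.7% and 64.4% in R9308 and 68.4% and 67.7% in Xieqingzao B. The hybrid values lay inside or next to the parental range there. Position 3471 of Os02t0528900-01 behaved differently, with 70.7% (58.0 to 80.8%, 41 of 58 reads) in the hybrid at tillering and 47.4% at heading. R9308 had 34.4% at heading and 28.4% at tillering there, and Xieqingzao B had 24.3% at heading and 41.3% at tillering, so that both hybrid libraries lay above all 4 parental ones.

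Ranking by number favours long and variable transcripts. Among the 2340 transcripts with chosen sites and at least 10 sites in the table, 131 had a pair in both parents at 50% or more of their sites. In Os03t0791500-01 this was so at all 13 sites, in Os05t0163250-01 at 21 of 22 and in Os06t0167000-02 at 21 of 23. None of the 10 transcripts with the highest percentage was among the 10 with the highest number (0 shared). These 3 transcripts were named after their values were seen.

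By chromosome, taken from the transcript identifier, the chosen sites made up between 4.41% of all sites on chromosome 11 and 6.85% on chromosome 5. The whole-chromosome value hid a marked local difference on chromosome 11. RAP locus numbers run in order along each chromosome, and the table was therefore split into blocks of 50000 numbers, of which 133 held at least 500 sites. The highest percentage among these was in the first block of chromosome 11, with 332 of 1989 sites (16.7%, 15.1 to 18.4%). The next was the first block of chromosome 12, with 371 of 2388 sites (15.5%, 14.1 to 17.0%). The first block of chromosome 2 followed with 14.3%, then a block of chromosome 1 with 11.8% and a block of chromosome 10 with 11%. The rest of chromosome 11 had 3.36% and the rest of chromosome 12 had 4.34%. The first blocks of the other 10 chromosomes together had 6.19%.

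**Figure D1:**
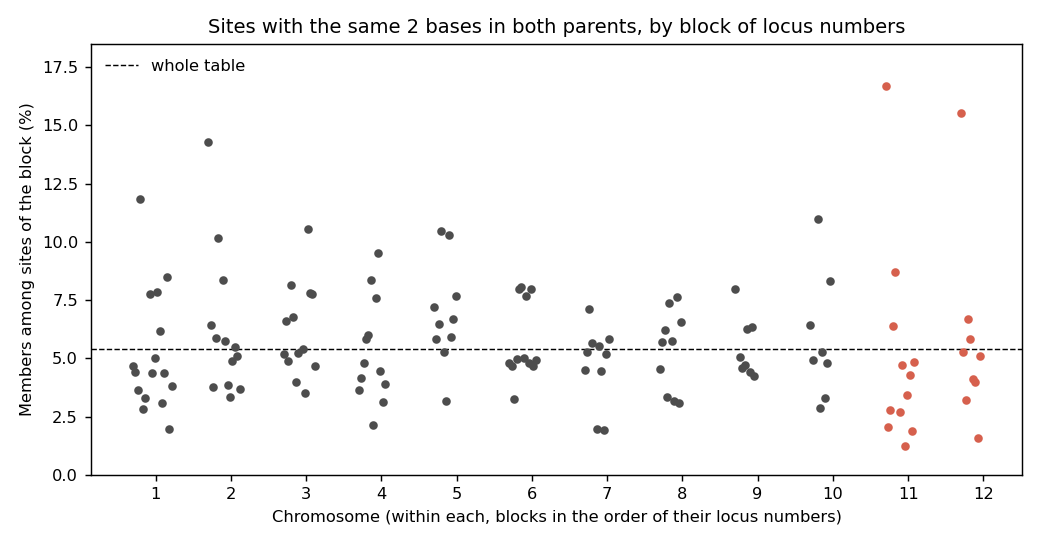
Percentage of the sites of each block of 50000 locus numbers that had the same pair of bases in both parents at both stages, for the 133 blocks with at least 500 sites, in the order of their numbers along each chromosome. The dashed line is the whole table (5.40%). All blocks of chromosomes 11 and 12 are red, and the first block of each stands at 16.7% and 15.5%.

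More transcripts were involved in these 2 blocks, not only more sites per transcript. Of the 515 transcripts in the first blocks of chromosomes 11 and 12, 135 (26.2%) held chosen sites, against 10.7% of the transcripts in the rest of the table. By block it was 27.5% on chromosome 11 and 25% on chromosome 12. A block of chromosome 5 had a higher share of such transcripts (37.5%), with 10.5% of its sites chosen. A high share of transcripts was thus not particular to the first blocks of chromosomes 11 and 12. The richest on chromosome 11 were Os11t0116600-00 (40 of 60 sites), Os11t0118800-01 (19 of 26) and Os11t0131800-01 (17 of 74). On chromosome 12 they were Os12t0109900-02 (40 of 65), Os12t0131701-00 (36 of 59) and Os12t0104300-01 (31 of 43). Without these 3 transcripts in each block, the percentages were 14% on chromosome 11 and 11.9% on chromosome 12. The blocks and these transcripts were singled out after their values were seen, and intervals over sites treat sites that share reads as separate. Across the whole table, 30.4% of the loci with chosen sites had an adjacent locus with chosen sites, against 22.3% of the loci without any.

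Substitution types at the chosen sites were close to those of the rest of the table. The pair always held the reference base. Transitions, exchanges of A with G or of C with T, made up 8114 of the 13493 pairs (60.1%, 59.3 to 61.0%). They made up 63.3% (63.1 to 63.5%) of the 229472 other sites with a single other base, and 65.6% (65.0 to 66.1%) of the 29935 sites at which each parent had a single base and the parents differed. The remaining 6892 other sites, with several other bases or none, were left out of the substitution types. The 4 kinds of transition occurred at similar frequency. C as the reference base with T as the other was found at 2203 sites, and its complement on the opposite strand, G with A, at 2020. The reverse exchanges, T with C and A with G, were found at 2032 and 1859 sites. C-to-T was therefore 16.3% of the pairs, against 16.6% of the other sites with a single other base. The share of transitions changed little with the number of chosen sites in the transcript, lying between 58.8% in transcripts with 2 to 4 and 61.2% in transcripts with 10 to 19. In the first blocks of chromosomes 11 and 12 it was 66.1%, against 59.8% at the remaining chosen sites.

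The starts of transcripts stood apart. The first 20 bases of a transcript held 1353 of the chosen sites (10.0%, from 475 transcripts), against 5.05% of the other sites. Only 40.2% (37.6 to 42.8%) of the pairs in these first bases were transitions, against 62.4% (61.5 to 63.2%) further into the transcript. Among the other sites with a single other base, it was 40.3% of 7078 in the first bases and 64.0% beyond them, while 4867 other sites in the first bases had several other bases or none and are not in this share.

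The hybrid showed the same pair of bases at most of the chosen sites. Xieyou9308 had it at 84.6% (84.0 to 85.2%) of the 13493 sites at heading and at 79.2% (78.5 to 79.9%) at tillering, and at both stages at 9390 sites (69.6%). At the other sites the hybrid mostly had no call (9.19% at heading and 13.1% at tillering) or a single base. Those calls rested on few reads, with a median of 12 at heading and 9 at tillering where a single base was called, against 35 and 34 where the pair was called. Among the 3921 chosen sites with at least 44 reads in each parental column, the hybrid had the pair at 94.0% at heading and 90.3% at tillering.

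Sites with a pair in a single parent differed from this. Where R9308 had the pair at both stages and Xieqingzao B a single base, with at least 44 reads in each parental column, the hybrid had the pair at 272 of 483 sites at heading (56.3%, 51.9 to 60.7%) and at 54.0% at tillering. Where Xieqingzao B had the pair and R9308 a single base, it was 302 of 561 sites at heading (53.8%, 49.7 to 57.9%) and 52.2% at tillering. The intervals of these groups do not reach those of the sites with the pair in both parents. They treat sites that share reads as separate, however, and the groups are not matched. The difference is thus a description and was not tested. No call was made in the hybrid at 27.3% to 36.9% of the sites with a pair in a single parent, against 4.51% and 7.37% of the sites with a pair in both.

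**Figure D2:**
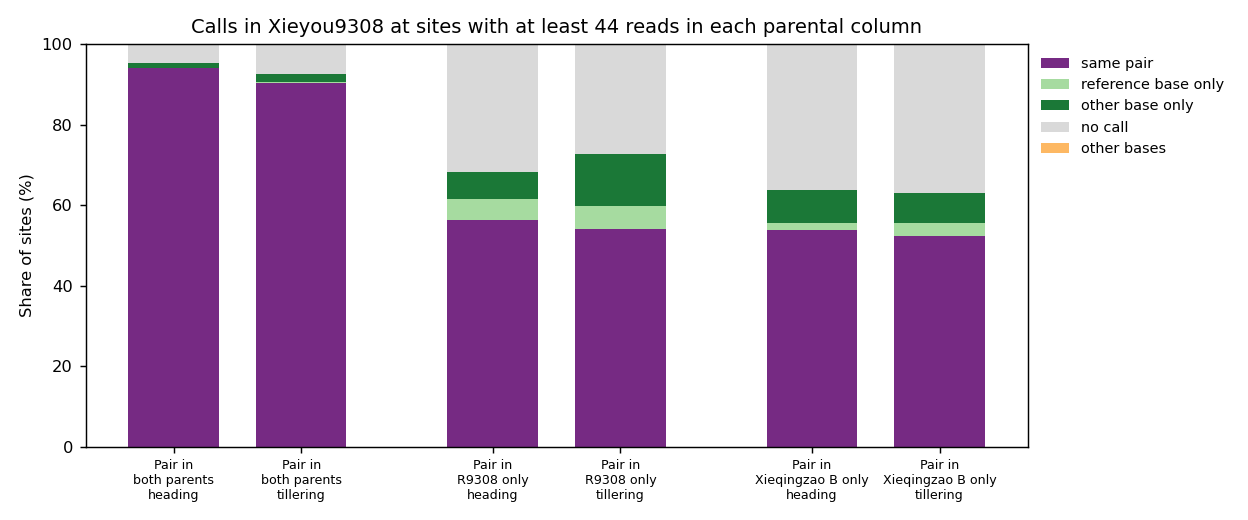
Calls in the pooled Xieyou9308 libraries at heading and tillering, as a percentage of sites, where the pair was found in both parents (3921 sites), in R9308 only (483) or in Xieqingzao B only (561), all with at least 44 reads in each parental column. The same pair was called in the hybrid at over 90% of the sites in the leftmost bars and at 52.2% to 56.3% of the sites in the others.

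Few chosen sites had the same single base in the hybrid at both stages. There were 133 such sites, 96 with the alternative and 37 with the reference base, and only 5 of them had at least 44 reads in all 6 columns. All 5 showed the alternative base in the hybrid. At position 1015 of Os09t0373750-01 the hybrid had 110 reads at heading and 128 at tillering of this base. R9308 had an alternative share of 80.7% at heading and 63.7% at tillering there, and Xieqingzao B had 71.0% at heading and 79.3% at tillering. At position 496 of Os08t0331800-01 the hybrid had 124 and 132 reads at heading and tillering, against shares of 82.5% and 63.7% in R9308 and 80.1% and 74.3% in Xieqingzao B. The others were position 3099 of Os04t0139201-01 and positions 237 and 244 of Os06t0701700-01, which lie within the span of a single read. At all 5 sites the alternative base was the more frequent in every parental library. The table gives a single number of reads for a single called base, so reads of the other base below the level of a call are not recorded. These sites were named because they were so few, after their values were seen.

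The alternative shares were broad and leaned slightly towards the reference base. They are given for the 2638 chosen sites (728 transcripts) with the pair and at least 44 reads in all 6 columns, since the order of the 2 read numbers is uncertain below that depth. In Xieyou9308 the median was 47.2% (quartiles 36.9 and 61.6%) at heading and 45.6% (35.4 and 58.5%) at tillering. R9308 had a median of 47.2% at heading and 46.2% at tillering, and Xieqingzao B had 45.7% at heading and 47.3% at tillering. The lean was not kept at sites scoring 50 or more in every library, with medians of 49.2% to 51.5% over the libraries. The lowest and highest shares in the hybrid were 13% and 89.2% at heading. Between 37.9% and 41.9% of the sites had a share from 40 to 60% in each library, 32.8% to 36.3% lay below 40% and 23.0% to 27.8% above 60%. The wide spread was thus a feature of the hybrid and both parents.

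The split of the reads at a site was shared between libraries. Over the 2638 sites the Pearson correlation of the shares lay between 0.604 and 0.806 for the 15 pairs of libraries. The highest was between the hybrid and R9308 at heading, and the lowest between the hybrid at tillering and Xieqingzao B at heading. The share in the hybrid followed the mean of the parents with r = 0.809 at heading and 0.750 at tillering. These are descriptions across sites that share transcripts, reads and reference sequence, and sites are not replicates. The hybrid minus the mean of the parents had a median of 0.548 points at heading and -0.764 points at tillering. The difference had an SD over sites of 9.73 points at heading and 10.9 at tillering. Its quartiles were -4.95 and 6.66 points at heading and -7.13 and 5.34 points at tillering. The median counting error was 5.44 and 5.58 points. An SD over sites of unequal depth and a median error are unlike summaries, so the excess cannot be sized from them. At 71.8% of the sites at heading and 69.1% at tillering the hybrid lay within 10 points of the mean of its parents.

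**Figure D3:**
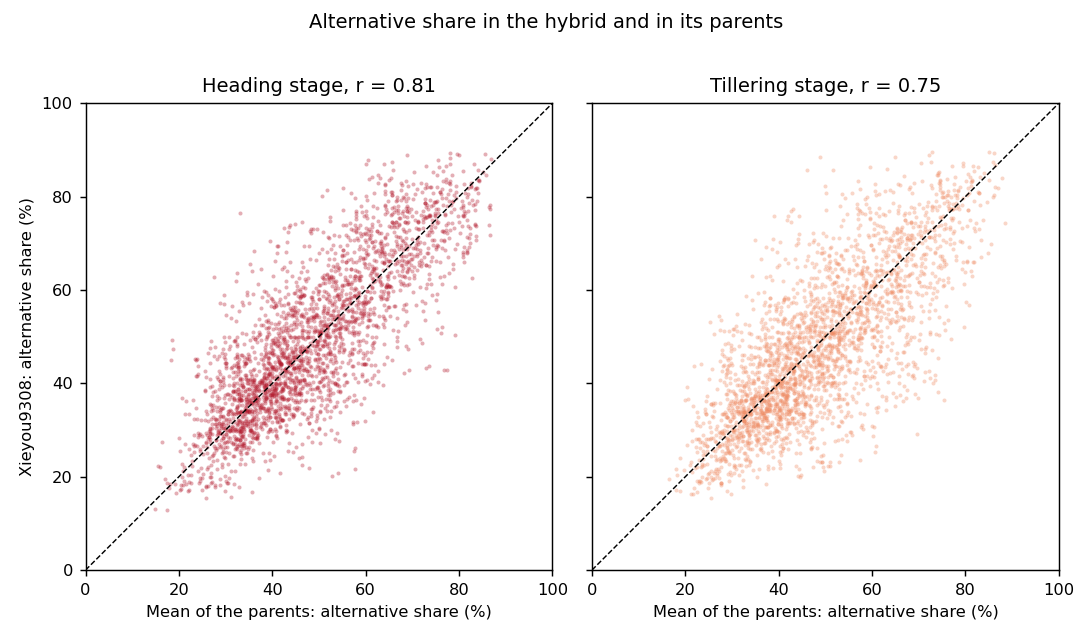
Alternative share in Xieyou9308 (vertical axis, percent of reads) against the mean of the shares in R9308 and Xieqingzao B (horizontal axis) at heading (left) and tillering (right), with a point for each of the 2638 sites and the line of equality dashed. The points follow the line with r = 0.809 at heading and 0.750 at tillering, and 4.97% and 7.85% of them lie more than 20 points from it.

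Chosen sites that lay close together had similar shares. For neighbouring sites 1 to 10 bases apart in a transcript (440 pairs), the median difference in share was 3.79 points at heading and 3.98 at tillering in the hybrid, and 3.5 to 4.13 in the 4 parental libraries. At 11 to 50 bases it was 5.8 to 6.14 points over all 6 libraries. Beyond 300 bases (100 pairs) it reached 10.7 at heading and 9.68 at tillering in the hybrid, and 8.83 to 11.2 points in the parents. Reads of 100 bases cover both sites of a close pair. In the 165 transcripts with at least 5 such sites, the lowest and highest share in the hybrid at tillering were a median of 25.3 points apart.

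By the median share in the hybrid at tillering, the highest were Os07t0484600-01, Os02t0813800-01 and Os03t0164400-01, and the lowest were Os06t0167000-01, Os01t0566100-01 and Os06t0308900-01. Os02t0813800-01 (7 sites) had a median share of 82.9% at heading and 81.8% at tillering in the hybrid. R9308 had 80.6% at heading and 87.4% at tillering, and Xieqingzao B had 85.3% and 85.7%. A single site of this transcript went the other way, with 17.2% at heading and 19.5% at tillering in Xieyou9308, against 21.3% and 16.4% in R9308 and 19.2% and 16.7% in Xieqingzao B. The site before it in the same transcript had shares of 80.6% to 88.4% in the 6 libraries. Os07t0484600-01 (6 sites) also held a single lower site, at 38.6% and 50% in the hybrid at heading and tillering, against 38.9% and 35.8% in R9308 and 45.5% and 50.7% in Xieqingzao B. In both transcripts it was the same site that stood apart in every library. Os03t0164400-01 (5 sites) had medians of 75% and 81.6% in the hybrid at heading and tillering, against 78.8% and 76.9% in R9308 and 69.0% and 71.9% in Xieqingzao B.

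At the low end, Os01t0566100-01 (8 sites) had a median share of 26.1% at heading and 25.4% at tillering in the hybrid. R9308 had 37.5% at heading and 32.5% at tillering, and Xieqingzao B had 38.2% at heading and 26.8% at tillering. Os06t0167000-01 (5 sites) had 30.1% and 25.9% in the hybrid at heading and tillering, against 33.6% and 42.3% in R9308 and 40.0% and 34.6% in Xieqingzao B. Os06t0167000-02, named above, is another transcript of this locus. Not all of its sites were so low in the hybrid at tillering, with 33.1% at a site and 42.7% at another. In Os01t0566100-01 and Os06t0167000-01 the hybrid median was below that of both parents at each stage. In Os06t0308900-01 (7 sites) it was 33.0% at heading and 22.1% at tillering, against 30.7% and 29.5% in R9308 and 35.5% and 26.7% in Xieqingzao B, so that the hybrid was the lowest at tillering but not at heading. All 3 were picked for a low share in the hybrid at tillering, so the order at that stage is a description and supports nothing.

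**Figure D4:**
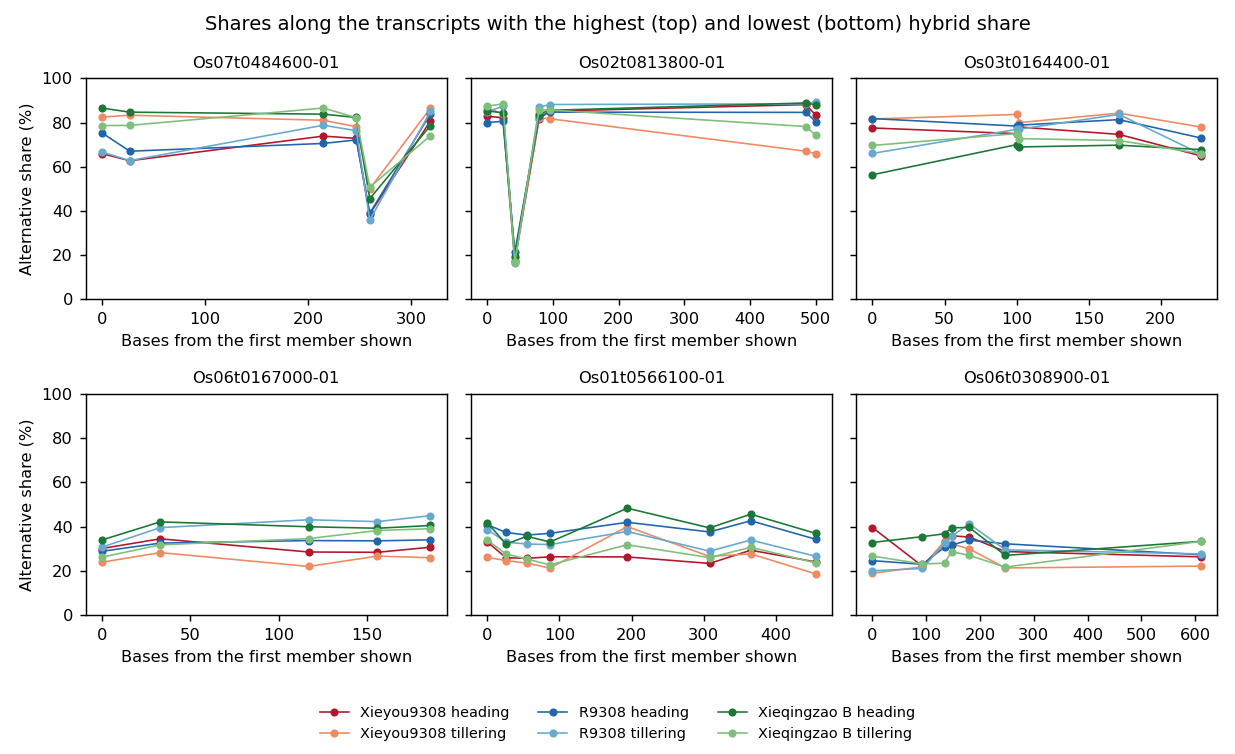
Alternative share (percent of reads) in each of the 6 pooled libraries at the chosen sites of the 3 transcripts with the highest (top) and the 3 with the lowest (bottom) median share in Xieyou9308 at tillering, against the distance in bases from the first site shown. In Os02t0813800-01 a single site stands at 16.4% to 21.3% in all 6 libraries between neighbours above 80%.

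Shares were then compared between pairs of pooled libraries with Fisher's exact test at each site, two-sided, with Benjamini-Hochberg adjustment at 0.05 over all sites of the table that had the same pair and at least 44 reads in both. The test compares the reads of 2 libraries and not the conditions, and PCR copies of a molecule are counted as separate reads. Between the hybrid at heading and the hybrid at tillering, 382 of 3013 chosen sites were called (12.7%), in 160 of 843 transcripts. The background over all 15974 sites tested was 6.34%, and among the other sites alone 4.86% were called. Here the other sites needed the pair in both hybrid libraries only, whatever the calls in the parents, so they are not a matched set. Of the 382, 244 had a higher share at heading (8.10%, background 3.67%) and 138 a lower one (4.58%, background 2.67%). The chosen sites had a median of 96 reads at heading and 94 at tillering, against 106 in each library at the other sites. At 100 or more reads in both libraries, 20.2% of the chosen and 6.84% of the other sites were called. Among sites under 100 reads in both, it was 6.66% and 3.68%. At 20 or more reads it was 12.5% and 9.15%, but that setting includes pairs whose order is uncertain and cannot show an effect of depth. With the best covered site of each transcript alone, 77 of 584 chosen sites were called, against 3.82% of the others.

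The comparisons with a parent use a parental column that also served to choose the sites. The chosen sites needed the same pair in both parents, whereas the other sites did not. The percentages below are therefore descriptions, and their place beside the background supports nothing about the chosen sites. The background also includes the chosen sites themselves. Against the parents, the percentage called lay below the background in each comparison, by little against Xieqingzao B at heading, and the difference was not tested. By direction, the percentage with a lower share in the hybrid was below the background in all 4 comparisons. The percentage with a higher share was close to or above it in 3 of them, and below it against Xieqingzao B at tillering. At heading, 405 of 4001 chosen sites were called between Xieyou9308 and R9308 (10.1%, background 13.4%), 232 with a higher (5.8%, background 5.74%) and 173 with a lower share (4.32%, background 7.66%) in the hybrid. At tillering, 741 of 3875 were called (19.1%, background 25.8%), 336 higher (8.67%, background 8.02%) and 405 lower (10.5%, background 17.7%). Between Xieyou9308 and Xieqingzao B, 830 of 4027 were called at heading (20.6%, background 22.3%), 472 higher (11.7%, background 10.2%) and 358 lower (8.89%, background 12.1%). At tillering, 391 of 3731 were called (10.5%, background 17%), 152 higher (4.07%, background 5.42%) and 239 lower (6.41%, background 11.5%). The comparisons at a stage share the hybrid library. The median difference at a called site was 22.1 to 24.5 points in size over the 5 comparisons. Among the other sites alone, 17.4% were called against R9308 at heading and 33.2% at tillering. Against Xieqingzao B it was 24.5% at heading and 23.8% at tillering. The other sites tested here had the pair in the hybrid and in the parent concerned but not in all 4 parental columns, so they are not a matched set.

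**Figure D5:**
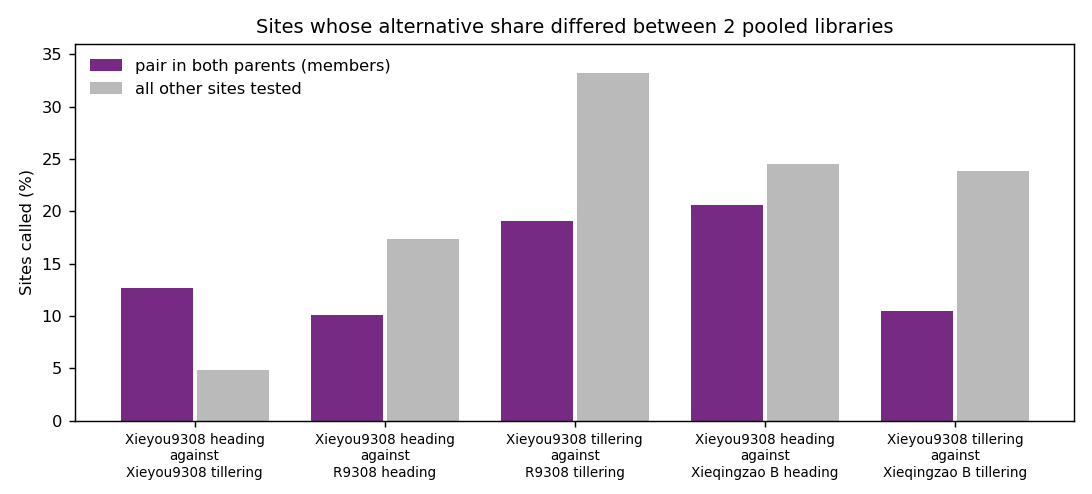
Percentage of tested sites whose alternative share differed between 2 pooled libraries (Fisher's exact test, adjusted p below 0.05), for sites with the same pair in both parents (purple) and for all other tested sites (grey), in the 5 comparisons. The purple bar is the taller between the stages of the hybrid (12.7% against 4.86%) and the shorter in all 4 comparisons with a parent. The other sites are not a matched set in any comparison, and the comparisons with a parent use columns that also served to choose the sites.

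Most transcripts with several called sites moved in a single direction. Close sites of a transcript share reads, so agreement between them is not independent support. In the comparison of the stages, 90 transcripts had at least 2 called sites, and in 15 of them the directions were mixed. Os05t0226900-01 had the most, with 14 of 18 tested sites lower at heading than at tillering and none higher. Its 18 sites had a median share of 40.1% at heading and 66.9% at tillering in the hybrid, against 55.3% and 40.8% in R9308 and 54.4% and 70% in Xieqingzao B. The hybrid and Xieqingzao B were thus both higher at tillering than at heading in this transcript, and R9308 was lower. At its position 653 the share was 36.5% (32.5 to 40.6%, 197 of 540 reads) at heading and 83.3% (78.0 to 87.6%, 195 of 234 reads) at tillering in the hybrid, with an adjusted p of 3.1e-31 by Fisher's exact test. The called site with the lowest p among those with a higher share at heading was position 1760 of Os08t0555200-01, with 53.9% (494 of 917 reads) at heading and 29.6% (410 of 1385 reads) at tillering (adjusted p = 9.3e-28, Fisher's exact test). Both parents lay between 43% and 60.6% at this site.

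The transcripts with the most called sites against the parents were others. In Os07t0532800-00, 32 of 42 tested sites had a higher share in the hybrid than in R9308 at heading, and 31 of 42 than in Xieqingzao B, with none lower in either. Its tested sites had a median share of 67.2% in the hybrid, against 33.4% in R9308 and 41.3% in Xieqingzao B. The hybrid lay outside the range of its parents here, and median depth was 154 reads in the hybrid, against 87.0 in R9308 and 91.5 in Xieqingzao B. In Os03t0349200-01, 25 of 34 tested sites had a lower share in the hybrid than in R9308 at tillering, with medians of 35.8% and 62.8%. In Os06t0649000-01, 13 of 21 were lower in the hybrid than in Xieqingzao B at tillering, with medians of 44.3% and 66.0%. These transcripts were named for their number of called sites after the values were seen, and their close sites share reads.

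Single sites differed by up to 62.3 points in size between the hybrid and a parent. At position 1077 of Os04t0581000-01 the share at heading was 79.6% (813 of 1021 reads) in Xieyou9308, against 26.9% (374 of 1390 reads) in Xieqingzao B, with an adjusted p of 7.5e-148 by Fisher's exact test. R9308 had 57.5% there at heading, so that the hybrid exceeded both parents. At tillering the hybrid had 662 reads of the alternative base alone at this site, against 51.1% in R9308 and 60.9% in Xieqingzao B. At position 829 of the same transcript the hybrid had 76.4%, R9308 39.9% and Xieqingzao B 26.1% at heading, and the difference from R9308 had an adjusted p of 1.5e-45 (Fisher's exact test). The next locus number gave the lowest p for a lower share than in R9308 at heading. At position 691 of Os04t0581100-01 the hybrid had 50.1%, against 75.5% in R9308 (adjusted p = 4.8e-33, Fisher's exact test) and 78.5% in Xieqingzao B. The hybrid was below both parents at heading but above both at tillering. At tillering it had the alternative base alone (244 reads), against 25.6% in R9308 and 48.1% in Xieqingzao B. At position 451 of Os09t0564000-01 the hybrid had 43.6% at heading, against 73.3% in Xieqingzao B and 73.4% in R9308, and the difference from Xieqingzao B had an adjusted p of 1.8e-50 (Fisher's exact test). There too the hybrid had the alternative base alone at tillering (79 reads), against 63.0% in R9308 and 75.3% in Xieqingzao B.

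The lowest p values at tillering came from Os05t0226900-01 and Os03t0223301-01. At position 1047 of Os05t0226900-01 the hybrid had 69.1%, against 32.3% in R9308 (adjusted p = 1.1e-43, Fisher's exact test) and 69.8% in Xieqingzao B. The hybrid stood with its maternal line there at tillering. At heading it did not, with 34.6% in the hybrid, 45.6% in R9308 and 56.8% in Xieqingzao B. At position 1148 of Os03t0223301-01 the hybrid had 21.9% at tillering, against 60.4% in R9308 (adjusted p = 1.7e-23, Fisher's exact test) and 20.1% in Xieqingzao B. The hybrid again stood with the maternal line at that stage. At heading it had 35.4% there, against 30.5% in R9308 and 24.0% in Xieqingzao B. Against Xieqingzao B at tillering, position 771 of Os05t0226900-01 was higher in the hybrid (47.7% against 32.6%, adjusted p = 1.5e-16) and position 486 was lower (37.9% against 50.3%, adjusted p = 5.6e-13, both Fisher's exact test). At positions 771 and 486 the hybrid lay between its parents at tillering, since R9308 had 54.4% and 28.0%.

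Of the 38 loci for which the study's supplementary annotation was at hand, 5 held chosen sites. The paper's annotated list of 38 transcripts was picked for strong allelic bias in the hybrid in these same data, so it is not a sample of all loci. Over all 23892 loci of the table, 3021 did (12.6%), a similar share. A transcript annotated with a Myb domain, Os02t0271900-01, held a single chosen site out of 27. Myb proteins are a large family of transcription factors in plants. Os04t0474300-01, annotated as a glycoside hydrolase of family 1, an enzyme class that splits sugar bonds and includes the plant beta-glucosidases, held 3 of 48. The other 3 were hypothetical, with 1 of 3 sites in Os03t0432900-01, 6 of 24 in Os01t0838400-01 and 9 of 59 in Os11t0452400-01. None of these sites had the pair and at least 44 reads in all 6 columns. These 5 were named because they were so few.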

How the data were processed

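The authors sequenced poly-A RNA of rice roots with paired 100-base reads, 18 cycles of PCR and 2 roots per genotype and stage. The submitters' processing notes name CASAVA 1.8 and SAMtools 0.1.16, and the paper's methods name trimming and mapping with RSEM to the Nipponbare reference genome (IRGSP). Which tool called the SNPs is not given in the sources used here. The authors pooled the reads of the separately sequenced roots before calling, so the table gives no spread between roots, and intervals and tests cover counting error only. PCR reads are not independent molecules. The deposited table holds, per site and pooled library, the bases, their read numbers and a quality score written by the authors' SNP caller. All of its columns were mapped to a combination (0 left out).

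Chromosomes were taken from the RAP identifiers, and positions count along the transcript. Read pairs in which both numbers could be a month and a day (up to 12 and up to 31) seem to have been turned round in the deposited table, since pairs with a first number of 13 to 31 and a second of up to 12 were nearly lacking. The order was unsure for 38.4% to 51.0% of the pairs of the chosen sites in each column. The largest total of such a pair is 43, hence shares are given from 44 reads.

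Counting and Fisher's exact tests were run in Python 3.11.15 with numpy 2.4.6, pandas 2.3.3, scipy 1.17.1 and numba 0.67.0, and the test was checked against scipy and tested on simulated data. Intervals are Wilson 95% intervals. The members and lists were chosen with earlier results of these data known. Named transcripts are the 10 with the most chosen sites, and the 3 with the highest and the 3 with the lowest median share in the hybrid at tillering among those with at least 5 sites at 44 reads. To these were added the called site with the lowest p in each direction of each comparison, and annotated transcripts with at least 10 chosen sites or in these groups. Other names were chosen after their values were seen. The reference table matched 0 of the loci with chosen sites, so genes are given by identifier, and no sequences are shown.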

Additional observations from a re-analysis of the deposited data

How the results depend on the processing

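No paired analysis was possible because the SNPs were called on reads of both roots together, which also leaves no replicate to leave out. Depth limits the set most, since the order of the 2 read numbers is uncertain below 44 reads and shares there could not be used. Alternatives that leave sites out at the start of transcripts, limit the depth from above, or alter the blocks were chosen after seeing the data. The cause of the differences below was not tested beyond what each alternative itself removes.

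The set of 13493 sites became 6270 with a quality score of at least 50 in the 4 parental columns, 3921 with at least 44 reads in each, 27715 when only tillering counted and 23659 when only heading counted. With a score of at least 20, at least 10 reads, the pair in the hybrid too, a single transcript per locus or no site in the first 20 bases, it stayed within 1.5 times of the main count. The share of transitions (60.1%) was 61.4% with a score of at least 50, 58.5% with at least 44 reads and 62.4% without the first 20 bases. The pair in the hybrid (84.6% at heading and 79.2% at tillering) was 94.0% and 90.3% at 44 reads, 93.4% and 90.1% at a score of at least 50, and 86.2% and 80.7% without the first 20 bases. Of the 10 richest transcripts, 7 stayed with a score of at least 50, and 0 when ranked by percentage.

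The first block of chromosome 11 (16.7%) had 22.0% in a block of 20000 locus numbers, 10.6% with a score of at least 50 (2.58% over all sites) and 14% without its 3 richest transcripts. For chromosome 12 (15.5%) these were 18.2%, 10.0% and 11.9%.

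Median shares moved past 50% in every library when all read pairs were used as deposited, to 57.1% at heading and 55.0% at tillering in the hybrid, 57.1% and 53.8% in R9308, and 55.5% and 55.6% in Xieqingzao B. With at least 20 reads they were 54.0% and 51.5% in the hybrid, 53.0% and 49.4% in R9308, and 50% and 51.5% in Xieqingzao B. With a score of at least 50 they were 51.5% and 49.2% in the hybrid, 51.5% and 49.8% in R9308, and 50.4% and 50.6% in Xieqingzao B. The settings with all read pairs or at least 20 reads include pairs whose order is uncertain, so they cannot decide whether the lean holds at shallow sites. With at least 100 reads the medians were 45.4% to 47.0% over the libraries. The lean towards the reference base thus depended on the score. Smaller moves were 45.9% with at least 100 reads in the hybrid at heading, 46.7% with a single site per transcript in Xieqingzao B at heading, and 45.9% with 44 reads needed in a single column in Xieqingzao B at tillering.

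The numbers of called sites are given for the hybrid at heading against tillering, then for the hybrid against R9308 at heading and at tillering, and against Xieqingzao B at heading and at tillering. They were 382, 405, 741, 830 and 391. With at least 100 reads they were 222, 254, 378, 480 and 226, and with at least 20 reads 770, 706, 1256, 1324 and 766. The setting of at least 20 reads includes pairs whose order is uncertain. With all read numbers divided by 2 they were 90, 102, 275, 313 and 107, and with Bonferroni adjustment 102, 92, 175, 233 and 76. With a single site per transcript they were 77, 85, 197, 208 and 123, out of fewer sites. Among sites under 100 reads in both libraries they were 83, 99, 166, 177 and 86. A chi-square test or a score of at least 50 changed each by less than 1.5 times. Between the stages of the hybrid, the percentage called among the chosen sites exceeded that among the others under each of these alternatives. The others are not a matched set.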
